A study of Mus musculus musculus x M. m. domesticus and Mus musculus domesticus and Mus musculus with 12 samples.

Results

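Spermatogonia are the mitotic germ cells at the base of the seminiferous tubule. Part of them self-renew as stem cells, and the rest divide, differentiate and enter meiosis. Genes expressed in these cells are used in whole testis as a readout of the early germ line. A list of 7 such genes was taken, namely *Kit*, *Zbtb16*, *Gfra1*, *Stra8*, *Dazl*, *Uchl1* and *Sohlh1*, and their Ensembl gene identifiers were looked up among the 7000 genes of the deposited table. Only 3 of the 7 were found: *Kit* (ENSMUSG00000005672_at), *Dazl* (ENSMUSG00000010592_at) and *Uchl1* (ENSMUSG00000029223_at). *Zbtb16*, a transcription factor of spermatogonial stem cells, *Gfra1*, the co-receptor for GDNF, *Stra8*, a retinoic acid-responsive gene of meiotic entry, and *Sohlh1*, a transcription factor of spermatogonial differentiation, were not analysed here. Per the methods the authors kept genes detected in every male, although the table does not have exactly the number of rows that the study states. The values below describe the detected part of the list and not spermatogonial expression as a whole.

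The study asked which expression differences accompany male sterility in hybrids between *M. musculus* and *M. domesticus*. Whole-testis RNA of 12 males, all 60 days old and 3 from each of 4 F1 genotypes, was hybridized to Affymetrix arrays, 1 per male. The fertile *DxD* males had a LEWES/EiJ mother and a WSB/EiJ father, and the fertile *MxM* males had a PWK/PhJ mother and a CZECHII/EiJ father. The hybrid *DxM* males, which are fertile, had a LEWES/EiJ mother and a PWK/PhJ father, and the hybrid *MxD* males, which are sterile, had a PWK/PhJ mother and a LEWES/EiJ father. Both hybrids carry the same 2 autosomal genomes and differ in the origin of the X and Y chromosomes and in the mother. The *DxD* and *MxM* males are not parents of the hybrids, which carry no WSB/EiJ or CZECHII/EiJ genome. All strains are wild-derived, and no male carried an engineered allele or received a treatment.

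Values are log2 expression, quantile normalized by the authors, with a range of 3.08 to 13.3 in the table and a median of 8.14 in every array. Precision is limited by the number of arrays, as array signals have no depth. Differences were tested with limma, fitted to all 7000 genes and all 4 genotypes with Benjamini-Hochberg adjustment over all genes, and were called at an adjusted p under 5%. In the array of *MxM* replicate 3, 131 genes were lower than in each of the other 11 males by 1 log2 unit or more. This count was not made for the other arrays. None of the 3 spermatogonial genes was among these 131. In these whole-testis samples, fewer cells of a type and less RNA per cell cannot be told apart.

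The 3 genes had 3 different orders of genotypes. *Uchl1* was highest in the sterile *MxD* males, lowest in *DxD* males and at a similar level between them in *MxM* and *DxM* males. *Dazl* was also highest in *MxD*, but its sterile males overlapped with a fertile *DxM* male. *Kit* was lowest in *DxD* and was not measurably different between *MxD* and either *DxM* or *MxM*. Among the measured genes, 1 of 3 differed between *MxD* and *DxM*, where 6.5% of all genes were called. Against *DxD* 3 of 3 differed (31% of all genes), and against *MxM* 2 of 3 (30.3% of all genes). Against the mean of the 3 fertile genotypes it was 2 of 3 (23.8% of all genes). Every called difference of *MxD* was an increase, and 3%, 15.9%, 13% and 11% of all genes were called higher in *MxD* in these 4 comparisons. Because these comparisons share the *MxD* males, their calls are not independent of each other. A gene-by-gene test after the study's methods, adjusted over all genes, kept only 1 of these pairwise calls, that of *Uchl1* against *DxD*, with an adjusted p of 0.028 with unequal variances and 0.013 with equal variances. Between *MxD* and *DxM* it called 0 of all 7000 genes with unequal and 9 with equal variances.

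**Figure D1:**
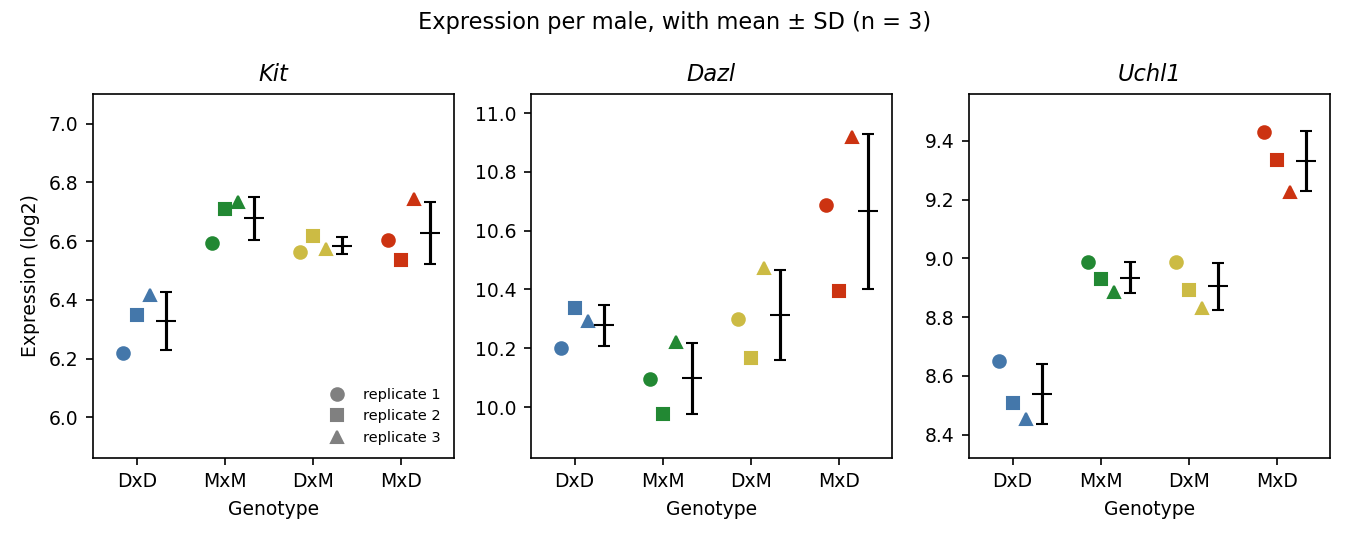
Log2 expression (y axis) of *Kit*, *Dazl* and *Uchl1* in each male (points, shaped by replicate number) of the 4 genotypes (x axis), with the mean ± SD of 3 males as black bars; each panel spans the same number of log2 units. The 3 *MxD* males are above all others for *Uchl1*, 2 of them are for *Dazl*, and for *Kit* the 3 *DxD* males are below all others.

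*Kit* encodes the receptor tyrosine kinase for KIT ligand. In the testis it is known as a surface marker of differentiating spermatogonia, and Leydig cells express it as well. The study's gene table places *Kit* on chromosome 5 and in the mitotic class, the genes with their greatest induction in spermatogonia. Its log2 expression was 6.22, 6.35 and 6.42 in *DxD* males, 6.59, 6.71 and 6.73 in *MxM* males, 6.56, 6.62 and 6.57 in *DxM* males and 6.60, 6.54 and 6.74 in *MxD* males. These values are below the array median of 8.14, and *Kit* was among the dimmest 25% of genes. Whether its low signal limits the size of its differences was not tested. The *DxD* males were the 3 lowest of the 12, a pattern that 9.41% of all genes share, and the ranges of the other 3 genotypes overlapped.

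The genotype means of *Kit* were 6.33 ± 0.10 (SD, n = 3) in *DxD*, 6.58 ± 0.03 in *DxM*, 6.63 ± 0.11 in *MxD* and 6.68 ± 0.07 in *MxM*. From *DxD* to *DxM*, the first step in this order, the log2 difference was 0.26 (standard error 0.08, limma adjusted p = 0.054) and missed the threshold. It passed with the replicate number as a block (limma adjusted p = 0.016), where 22.6% of all genes were called against 12.1% without the block. That block also covers the *MxM* males, whose numbers were not treated as pairing them with the other fertile males. *Kit* and *Uchl1* were 2 of 3 genes called between *MxM* and *DxD*, where 31.9% of all genes were called. For *Kit* the log2 difference was 0.35 (standard error 0.08, limma adjusted p = 0.0051), a 1.27-fold higher level in *MxM* with a 95% interval of 1.13 to 1.43. The sterile *MxD* males were 0.30 above *DxD* on the log2 scale (standard error 0.08, limma adjusted p = 0.013), which is 1.23-fold. That call rested on single males, since the adjusted p was 0.059 without *DxD* replicate 1 and 0.055 without *MxD* replicate 3.

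Between the reciprocal hybrids, *Kit* was 0.044 higher in *MxD* on the log2 scale (standard error 0.08, limma adjusted p = 0.82). The 95% interval of -0.13 to 0.21 corresponds to 0.916-fold to 1.16-fold, so a larger change in either direction lies outside it. Against *MxM* the log2 difference was -0.050, with an interval of -0.22 to 0.12 (limma adjusted p = 0.66). Against the mean of the fertile genotypes it was 0.10, with an interval of -0.04 to 0.24 (limma adjusted p = 0.29). These intervals hold small changes of either sign and do not show equal expression. Of the 10 Leydig cell markers listed for a check, 1 had an identifier in the sources used here. This gene, *Cyp17a1*, an enzyme of androgen synthesis, was among those the study picked from the same males for their values in *MxD*, in the postmeiotic class, so it is no unselected measure of Leydig cells. It had a mean of 9.97 ± 0.63 (SD, n = 3) in *MxM*, 10.1 ± 0.41 in *DxD*, 10.6 ± 0.14 in *DxM* and 11.2 ± 0.06 in *MxD*. Its part in the *Kit* values was not tested.

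*Dazl* encodes a germ cell RNA-binding protein that controls the translation of bound mRNAs and is required for germ cell development. It is expressed in spermatogonia and also in spermatocytes. Its chromosome and cell type class were not among the rows of the study's gene table used here. Its log2 expression was 10.1, 9.98 and 10.2 in *MxM* males, 10.2, 10.3 and 10.3 in *DxD* males, 10.3, 10.2 and 10.5 in *DxM* males and 10.7, 10.4 and 10.9 in *MxD* males. The 2 highest of the 12 values were from *MxD* males. The other sterile male, replicate 2 at 10.39, was below *DxM* replicate 3 at 10.47.

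The spread of *Dazl* was widest among the sterile males. The means were 10.1 ± 0.12 (SD, n = 3) in *MxM*, 10.3 ± 0.07 in *DxD*, 10.3 ± 0.15 in *DxM* and 10.7 ± 0.26 in *MxD*. The SD pooled over the genotypes was 0.17 on the log2 scale, against 0.08 for *Kit* and 0.09 for *Uchl1* and a median of 0.13 over all 7000 genes. Neighbouring fertile genotypes in this order did not differ beyond their spread. The log2 difference was -0.18 between *MxM* and *DxD*, with an interval of -0.46 to 0.10, and 0.035 between *DxM* and *DxD*, with an interval of -0.24 to 0.31.

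*Dazl* was 0.57 higher on the log2 scale in *MxD* than in *MxM* (standard error 0.13, limma adjusted p = 0.0065), a 1.48-fold level with a 95% interval of 1.22 to 1.80. It was 0.39 higher than in *DxD* (standard error 0.13, limma adjusted p = 0.037). Between the hybrids the log2 difference was 0.35, with an interval of 0.07 to 0.63, and it missed the threshold (limma adjusted p = 0.13). Blocking on replicate number, with which 17.2% of all genes were called, gave it a limma adjusted p of 0.031, and without *MxD* replicate 2 it was 0.038. Against the mean of the fertile genotypes *Dazl* was 0.44 higher (standard error 0.10, limma adjusted p = 0.011), and without *MxD* replicate 3 the adjusted p was 0.079. The call against *DxD* was lost in 10 of 23 alternatives, among them the removal of *DxD* replicate 1, 2 or 3, *DxM* replicate 1, or *MxD* replicate 1 or 3, with adjusted p-values of 0.11, 0.067, 0.082, 0.051, 0.080 and 0.15 in this order.

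*Uchl1* encodes a ubiquitin C-terminal hydrolase, also known as PGP9.5, which is abundant in neurons and marks spermatogonia in the testis. Like *Kit*, it is on chromosome 5 and in the mitotic class of the study's gene table. Its log2 expression was 8.65, 8.51 and 8.45 in *DxD* males, 8.99, 8.89 and 8.83 in *DxM* males, 8.99, 8.93 and 8.88 in *MxM* males and 9.43, 9.34 and 9.23 in *MxD* males. The sterile males were the 3 highest of the 12 and the *DxD* males the 3 lowest, while the *DxM* and *MxM* males overlapped. Of all 7000 genes, 5.47% had the 3 *MxD* males above all 9 fertile males.

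Spread within a genotype was small beside the steps from *DxD* to *DxM* and from *MxM* to *MxD*, but not beside that from *DxM* to *MxM*. The means of *Uchl1* were 8.54 ± 0.10 (SD, n = 3) in *DxD*, 8.90 ± 0.08 in *DxM*, 8.93 ± 0.05 in *MxM* and 9.33 ± 0.10 in *MxD*. The log2 difference between *MxD* and *DxM* was 0.43 (standard error 0.08, limma adjusted p = 0.0094). This is a 1.34-fold higher level in the sterile hybrid, with a 95% interval of 1.19 to 1.52, and a larger increase was found in 2.59% of all genes. Against *MxM* the difference was 0.40 (limma adjusted p = 0.0036) and against *DxD* it was 0.79 (limma adjusted p = 5.4e-05), or 1.73-fold with an interval of 1.54 to 1.95. Over all genes, 1.86% were called higher in *MxD* in all 3 of these pairwise comparisons, and *Uchl1* was the only measured spermatogonial gene of which this was true. Against the mean of the fertile genotypes the difference was 0.54 (standard error 0.06, limma adjusted p = 3.3e-04), and that call was kept in all 20 alternatives that could be run on it.

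The fertile genotypes were themselves unequal for *Uchl1*. It was 0.40 higher on the log2 scale in *MxM* than in *DxD* (standard error 0.08, limma adjusted p = 0.0027). It was 0.37 higher in *DxM* than in *DxD* (limma adjusted p = 0.011). Without the block it was the only one of the 3 genes called in that comparison, in which 12.1% of all genes were called, and with the block *Kit* was called too, with 22.6% of all genes. The adjusted p of the latter difference was 0.056 without *DxD* replicate 2, 0.060 without *DxD* replicate 3 and 0.054 without *DxM* replicate 1. Between *DxM* and *MxM* the difference was -0.030, with an interval of -0.20 to 0.14. In that comparison none of the 3 genes had a limma adjusted p under 5%, where limma called 16.9% of all genes, and none had an unadjusted p under 5%, where 29.5% of all genes had. The gene-by-gene tests called none of the 3 either, and 4 (unequal variances) and 179 (equal variances) of all 7000 genes. The array was designed from a laboratory mouse genome of mainly *M. domesticus* origin. Per the study, probe mismatches should make transcripts appear higher in *M. domesticus*. Between *MxM* and *DxD*, *Kit* and *Uchl1* were higher in *MxM*. The log2 difference of *Dazl* was -0.18, with an interval of -0.46 to 0.10. Autosomal sequence differs between *DxD* and *MxM* and between either of them and the hybrids. The part of probe binding in these differences was not tested. The hybrids do not differ in their autosomal sequence.

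**Figure D2:**
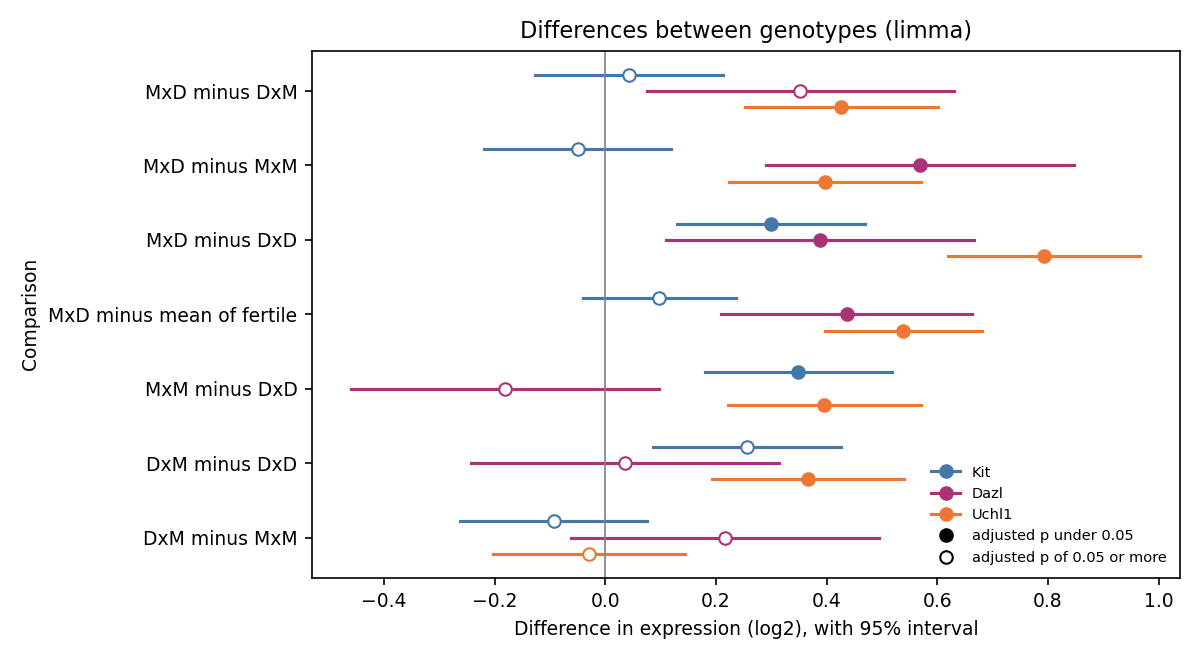
Difference in log2 expression (x axis) between genotypes for each comparison (y axis), from limma with 95% intervals, for *Kit*, *Dazl* and *Uchl1*; filled points have an adjusted p under 5%. All 3 *Uchl1* differences of *MxD* from a single fertile genotype are above 0 and called, *Dazl* is called in 2 of these 3 and *Kit* in 1.

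Deviations of the *MxD* males correlated positively across genes with those of fertile males of the same replicate number. Differences were therefore also taken between males of the same number. For *Uchl1* they were 0.44, 0.44 and 0.40 between *MxD* and *DxM*, 0.44, 0.41 and 0.34 between *MxD* and *MxM* and 0.78, 0.83 and 0.77 between *MxD* and *DxD*. These differences were nearly constant, and in each genotype the replicate 1 male had the highest *Uchl1* value. For *Dazl* they were 0.39, 0.23 and 0.45 against *DxM*, 0.59, 0.42 and 0.70 against *MxM* and 0.49, 0.055 and 0.62 against *DxD*. All 9 were positive, and the smallest in each comparison came from replicate 2. For *Kit* they were 0.042, -0.081 and 0.17 against *DxM* and 0.010, -0.17 and 0.012 against *MxM*, with both signs in each. Against *DxD* the *Kit* differences were 0.38, 0.19 and 0.33.

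**Figure D3:**
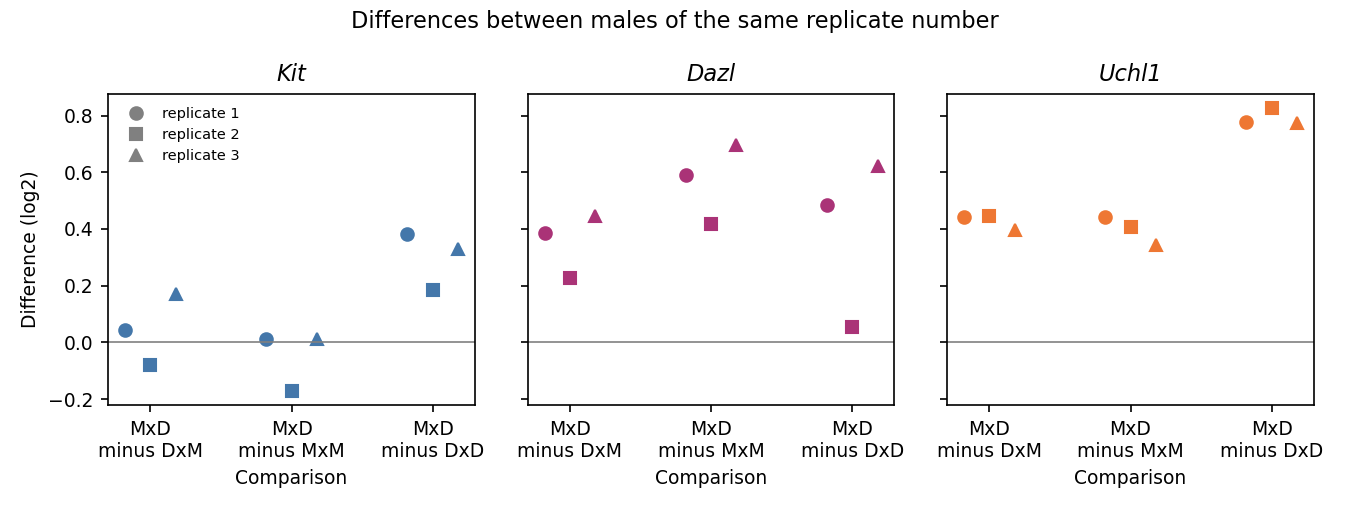
Difference in log2 expression (y axis) between the *MxD* male and the fertile male of the same replicate number, for 3 comparisons (x axis) and 3 genes; each point is 1 pair of males. The 9 *Uchl1* differences lie between 0.34 and 0.83 and the 9 *Dazl* differences between 0.055 and 0.70, while 2 of the 9 *Kit* differences are below 0.

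The 3 genes were then set beside the cell type classes of the study's gene table, of which 1997 rows were used. These rows are only a part of that table, which in the study lists every gene kept. Nearly all of them are autosomal. The class values and ranks below therefore cover neither the X chromosome nor all autosomal genes of a class. For the X-linked genes it associated with sterility, the study reports mostly higher expression in *MxD*, postmeiotic genes included. The 367 mitotic genes in these rows include *Kit* and *Uchl1*. Between *MxD* and *DxM*, 28 mitotic genes were called higher and 4 lower, and the median log2 difference was 0.16, against -4.2e-04 over all 7000 genes. *Uchl1* was in the upper tail of the mitotic class, with only 18 of 367 genes having a larger increase. *Kit*, which has a low signal, was in its lower part, with 284 of 367 genes above it. *Dazl*, which has no class in the rows used, had a larger increase than 327 of the 367. In comparison with *DxD*, 10 mitotic genes had a larger increase than *Uchl1* and 151 a larger one than *Kit*. Against *MxM*, *Uchl1* was less extreme, with 83 of 367 mitotic genes above it, and 292 were above *Kit*.

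In these mostly autosomal rows, the sterile males lay apart from all fertile males for mitotic and postmeiotic genes, but overlapped with them for somatic and meiotic genes. The mean deviation of a class from each gene's median over the 12 males was taken per male. For mitotic genes it was 0.099 to 0.22 in the *MxD* males and -0.15 to 0.016 in the fertile males. For the 269 postmeiotic genes it was -0.24 to -0.13 in *MxD* and 0.015 to 0.083 in fertile males. For the 142 somatic genes it was 0.058 to 0.083 in *MxD* and -0.093 to 0.10 in fertile males, and for the 324 meiotic genes -0.087 to -0.035 in *MxD* and -0.079 to 0.064 in fertile males. The median log2 difference between *MxD* and *DxM* was -0.20 for postmeiotic, -0.044 for meiotic and 0.11 for somatic genes. The sterile male with the highest *Dazl* value, replicate 3, also had the highest mitotic and the lowest postmeiotic deviation, whereas its *Uchl1* value was the lowest of the 3 sterile males. The part of these differences in the values of the 3 genes was not tested, apart from a centring of the arrays on the mitotic class.

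For that centring, each array was centred on its median over the mitotic genes in the rows used, and the fit was repeated. The setting was chosen after seeing the data. The log2 difference of *Uchl1* between *MxD* and *DxM* was then 0.33 (standard error 0.12, limma adjusted p = 0.12) and missed the threshold. Against *MxM* it was 0.27 (limma adjusted p = 0.10). Against *DxD* it was 0.59 and still called, and against the mean of the fertile genotypes it was 0.40 (limma adjusted p = 0.010). *Dazl* was 0.44 higher in *MxD* than in *MxM* in this fit and was still called. Its difference from *DxD* was 0.18 (limma adjusted p = 0.21). *Kit* was 0.093 higher in *MxD* than in *DxD* (limma adjusted p = 0.29). Its difference was -0.054 from *DxM* and -0.18 from *MxM* (limma adjusted p = 0.063). Both of the latter were opposite in sign to those of *Dazl* and *Uchl1*. None of these *Kit* differences was called.

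**Figure D4:**
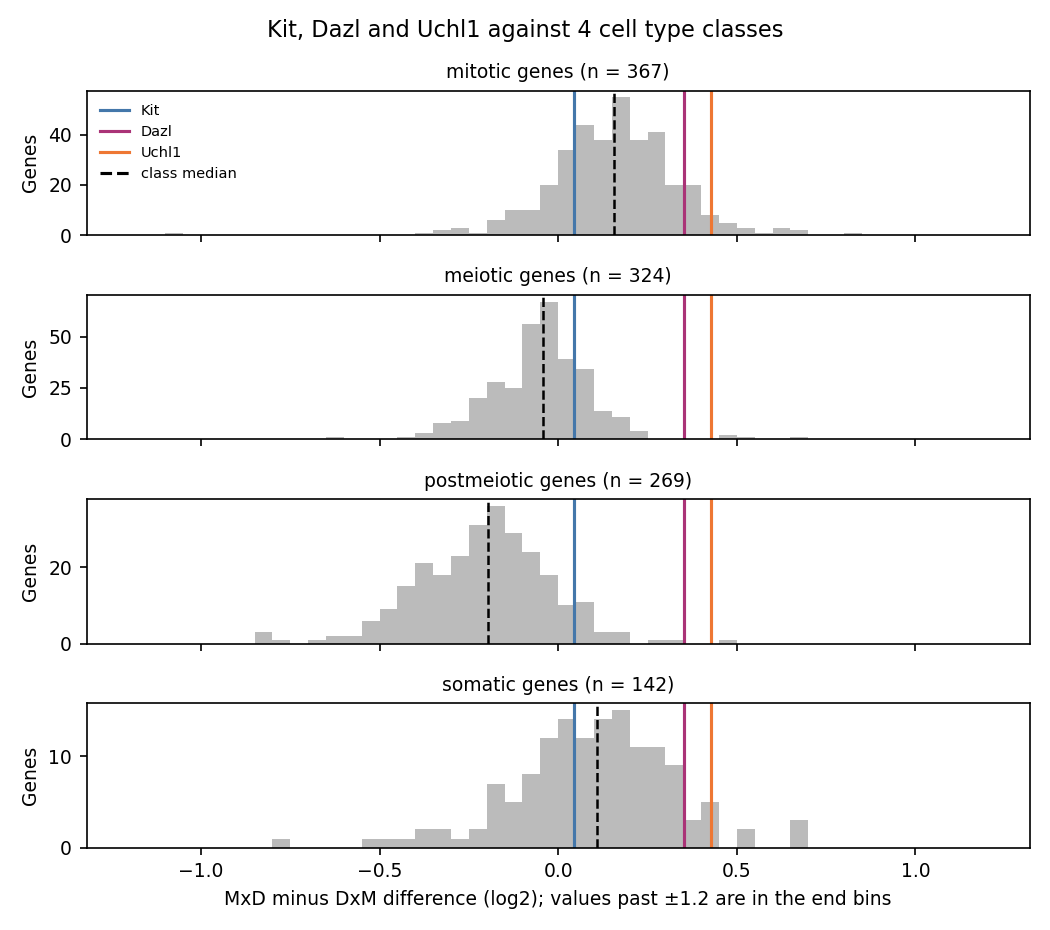
Number of genes (y axis) by log2 difference between *MxD* and *DxM* (x axis) for the mitotic, meiotic, postmeiotic and somatic genes in the rows of the study's gene table used here, with the class median (dashed) and the values of *Kit*, *Dazl* and *Uchl1* (coloured lines). *Kit* at 0.044 lies below the mitotic median of 0.16 and *Dazl* at 0.35 above it. *Uchl1* at 0.43 lies in the upper tail of the mitotic class.

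Profiles over the 12 males were compared by the root-mean-square difference between log2 values, each gene centred on its own mean. Only 48 genes of the table carry a symbol in the sources used here, these 3 and 45 that the study picked from the same males for their values in *MxD*, so a named neighbour is one of a chosen few. The nearest named gene to *Uchl1* was the X-linked postmeiotic gene *Zcchc13*, at a root-mean-square difference of 0.15, and 37 of all genes were nearer. *Fmr1nb* and *Dmrtc1a*, also X-linked and postmeiotic, followed at 0.15 and 0.16. The nearest to *Dazl* was *Spinlw1* on chromosome 2 at 0.12, with 12 genes nearer, followed by *Aqp8* and *Tspan6*, both at 0.19. The nearest to *Kit* was *Aqp8*, a water channel gene on chromosome 7, at 0.12, with 299 genes nearer, and then *Zcchc13* and 1700054O13Rik, both at 0.20. None of the 3 spermatogonial genes was among the 3 nearest named genes of another. For comparison, the median root-mean-square difference from all genes was 0.34 for *Uchl1*, 0.31 for *Dazl* and 0.23 for *Kit*.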

How the data were processed

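Testis RNA was hybridized to Affymetrix mouse whole-genome arrays. Per the methods, the authors grouped probes by Ensembl gene with BRAINARRAY chip description files (version 11) and summarised them with PLIER. They retained genes with detectable signal in each of 12 males, and then applied quantile normalization. The table does not have exactly the number of rows that they state for this filter. The log2 values deposited by the authors were used unchanged for 7000 genes. The sorted values are identical in all arrays. Genotypes and replicate numbers came from the sample titles.

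Genes were tested two-sided in R 4.3.3 with limma 3.58.1, fitting a mean for each genotype, over 6 pairwise contrasts and 1 contrast of *MxD* with the mean of the fertile genotypes. Folds and intervals were computed from these fits. The 7 genes, the comparisons and the lists were chosen with earlier results of these data known. Of 186 further genes planned in 10 lists, 1 could be matched to an identifier in the sources used here, so list counts were not made. Symbols of the 7 genes came with their identifiers. Other symbols, chromosomes and cell type classes came from the study's gene tables. Genes named were the measured ones of the 7, the 3 nearest named profiles of each and the matched marker.

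To see whether replicate numbers pair the males, deviations from the genotype mean were correlated between males that share a number, with genes as points. Between *MxD* and the fertile genotypes r had a range of 0.638 to 0.756 (replicate 1), 0.151 to 0.565 (replicate 2) and 0.234 to 0.446 (replicate 3), so the numbers were treated as pairing these males. No correlation was computed between males with different numbers, so these values do not establish a pairing. The numbers were also treated as pairing the *DxD* and *DxM* males (r of 0.162 to 0.754). Between *MxM* and the other fertile genotypes r had a range of -0.051 to 0.597, and there the numbers were not treated as pairing. The sources do not say what the numbers mark.

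Alternative settings were a replicate block, fits of only 2 genotypes, a trended robust prior, array weights, both forms of the methods' t-test (unequal and equal variances), a filter on the dimmest 25% of genes, a second quantile normalization, centring on the median of 2005 autosomal genes, and leaving out each male. The 2005 autosomal genes were those with a chromosome in the sources used here, not all autosomal genes. Centring on the mitotic genes and leaving out all replicate 1 arrays were added after seeing the data. The fits were tested on simulated data. Plots were made in Python 3.11.15 (matplotlib 3.10.9).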

Additional observations from a re-analysis of the deposited data

How the results depend on the processing

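The 21 single-gene differences were recomputed under 23 settings, giving 467 values, as not every setting applies to each. Direction and side of the threshold were kept in 415, 36 lost the call, 9 gained it and 7 changed sign. No called difference changed sign. The methods' t-test with unequal variances, after Benjamini-Hochberg adjustment, called 0 of the 3 genes between *MxD* and *DxM*, 1 against *DxD*, 0 against *MxM*, 0 between *MxM* and *DxD* and 0 between *DxM* and *DxD*, where at an unadjusted p under 0.05 it had 1, 2, 2, 2 and 2. Of all genes it called 0, 654, 3, 468 and 170. With equal variances it called 0, 1 and 0 in the *MxD* comparisons, 2 (*Kit* and *Uchl1*) between *MxM* and *DxD* and 0 between *DxM* and *DxD*. In the same order it had 1, 2, 2, 2 and 2 unadjusted, and 9, 1586, 420, 1377 and 777 of all genes called. These tests use only the 2 genotypes compared and do not share the spread across genes. Between *DxM* and *DxD*, 2 genes were called in place of 1 in the fit of 2 genotypes, with the replicate block, with autosomal centring and with array weights, whose estimation stopped before convergence. These settings called 1249, 1584, 921 and 2268 of all genes there, against 844. The replicate block also called 2 genes between *MxD* and *DxM* (*Dazl* and *Uchl1*), with 1201 of all genes against 455, and it changed no other call. Removing the dimmest genes removed *Kit*, which left 1 gene called between *MxM* and *DxD*. With arrays centred on the mitotic median, the counts were 0 against *DxM*, 1 against *DxD*, 1 against *MxM*, 1 between *MxM* and *DxD* and 0 between *DxM* and *DxD*, with 2, 1, 3, 3 and 0 unadjusted and 563, 2922, 2399, 2046 and 1080 of all genes. Without all replicate 1 arrays, 1 gene (*Uchl1*) was called against *DxD*, against *MxM* and against the mean of the fertile genotypes, with 1793, 1738 and 1295 of all genes. With 1 male left out, counts ranged from 1 to 2 for *MxD* against *DxM*, 1 to 3 against *DxD*, 1 to 2 against the fertile mean and 0 to 2 between *DxM* and *DxD*, and the other counts did not move. The changes of sign were in differences that were not called. With 1 male left out, *Dazl* between *DxM* and *DxD* ranged from -0.044 (without *DxM* replicate 3) to 0.11 and was -0.0030 without *DxD* replicate 1, *Uchl1* between *DxM* and *MxM* ranged from -0.072 to 0.0064 (without *DxM* replicate 3), and *Kit* between *MxD* and *DxM* from -0.014 (without *MxD* replicate 3) to 0.090. With mitotic centring *Dazl* between *DxM* and *DxD* was -0.074, and *Kit* was -0.054 against *DxM* and -0.046 against the fertile mean. Apart from the removal of *Kit*, the cause was not tested. With 3 males per genotype, intervals of about 0.34 log2 units for *Kit* and 0.56 for *Dazl* limit what could be detected.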
